A study of Mus musculus with 2 samples.

Results

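The insulin-like growth factor (IGF) system examined here comprises 10 genes, which encode the ligands Igf1 and Igf2, the receptors Igf1r and Igf2r, and the secreted binding proteins Igfbp2 to Igfbp7. Every probe set that the array annotation assigns to exactly 1 of these genes was taken, which gave 28 of the 45101 probe sets. The genes were picked partly on the large ratio of the Igfbp3 signal with CSF1 over that without, measured on these same arrays, so the ratio of Igfbp3 and those of the other genes are given as a description.

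IGF ligands signal through the receptor tyrosine kinase Igf1r and from there through insulin receptor substrates, PI3 kinase and AKT to growth and survival. The binding proteins hold the ligands in the extracellular space, lengthen or block their action, and are cut by dedicated proteases that set the ligands free. Igf2r has no kinase, takes up Igf2 for destruction in lysosomes, and also sorts lysosomal enzymes that carry mannose 6-phosphate. Macrophages are a known source of Igf1 in injured tissue.

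The cells were peritoneal macrophages of 8-week-old male wild-type C57BL6 mice, elicited by an intraperitoneal injection of 0.2 ml of 10% thioglycolate medium and collected by lavage with 15 ml of saline 1 week later. They were cultured in medium with 10% FBS and, at 80% confluence, either left untreated or given 100 ng/ml CSF1 (macrophage colony-stimulating factor, the ligand of the receptor tyrosine kinase Csf1r) for 12 h. Each condition was read on 1 array of the type Affymetrix Mouse Genome 430 2.0, and the question is how expression differed after CSF1. With 1 array per group there is no replicate check and no test, and this number of arrays limits how precise any value can be. The labels do not say how many mice gave the cells, or whether both samples came from the same mice.

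The deposited values are intensities on a linear scale, called units here. Signals of genes of unrelated tissues set a background level of 142.0 units, above which 42.1% of all probe sets lay without CSF1 and 40.5% with it. Values under the level were raised to it, and a gene was called measured when its brightest probe set exceeded the level on at least 1 array, which held for 10962 genes, with a median log2 ratio of CSF1 over control of 0.00. The log2 ratios of probe sets of 1 gene disagreed with a pooled SD of 0.29 over 3777 genes, which is the error set beside single ratios and does not cover cultures or mice. Spiked-in hybridisation controls (18 probe sets) averaged a log2 ratio of -0.29 ± 0.13 (SD between them). The ratio of 3' to 5' signal, a sign of RNA integrity, was 1.35 without CSF1 and 1.38 with it for Actb, while for Gapdh it was 1.03 and 1.40.

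Igfbp3 stood about 5 times as high on the CSF1 array as on the control array, Igfbp4 and Igfbp7 were higher by smaller amounts, and the ligand Igf1 was at nearly the same signal on both. The receptor Igf1r was lower. Igf2, Igfbp2 and Igfbp5 had no probe set above the background level on either array. Of the 28 probe sets, 16 were above the level on both arrays, 1 on the control array alone and 11 on neither, and 7 of the 10 genes were measured.

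**Figure D1:**
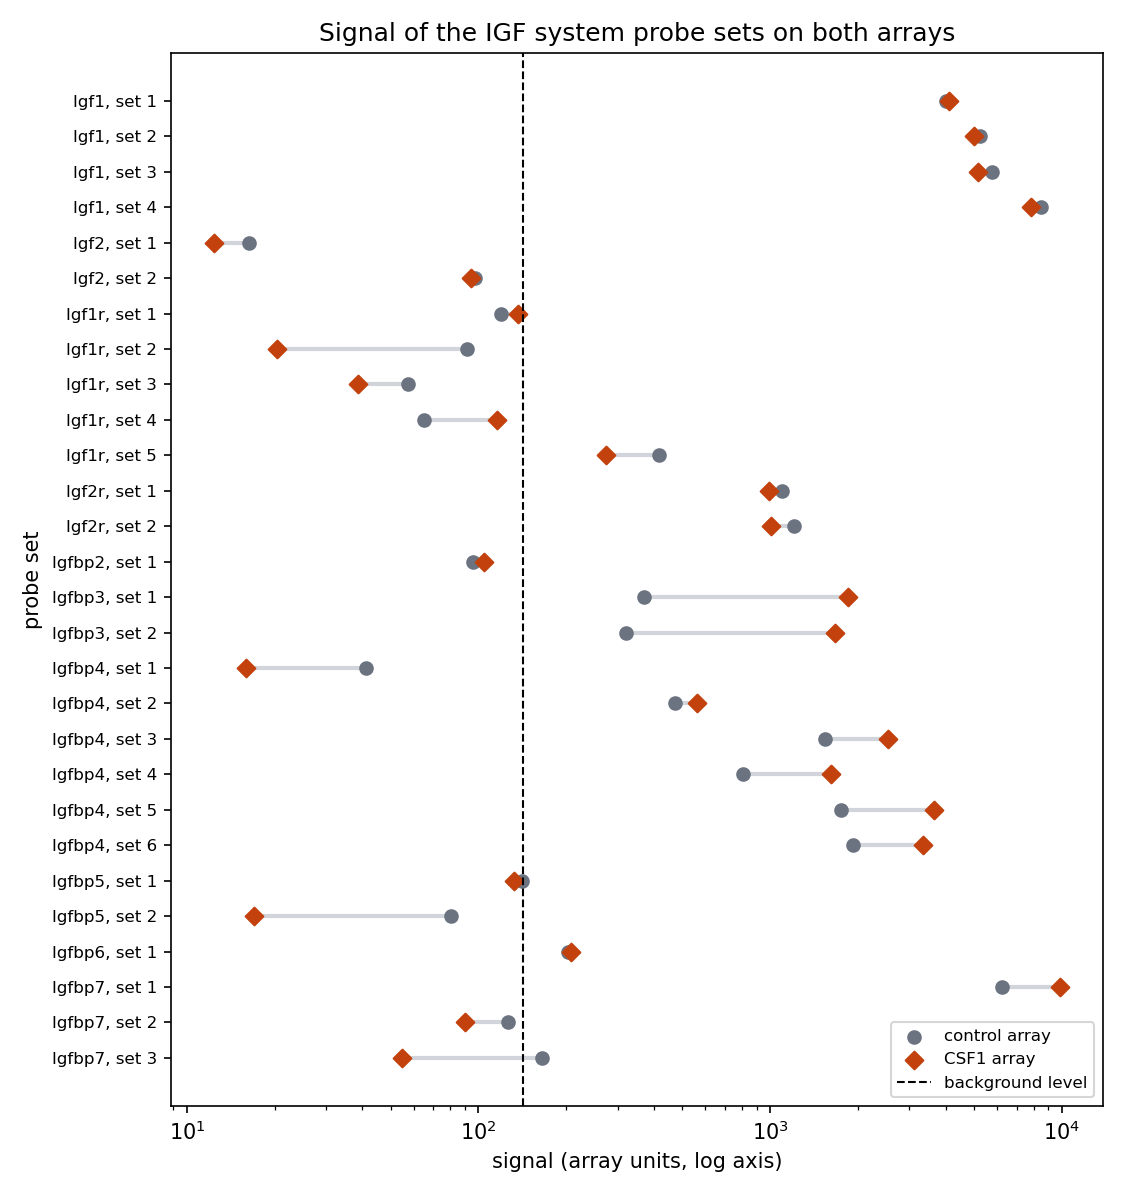
Signal of each of the 28 IGF system probe sets, in array units on a log axis, on the control array (circles) and the CSF1 array (diamonds), with the probe sets of a gene numbered in the order of their identifiers and a dashed line at the background level of 142.0 units. Both Igfbp3 probe sets and 5 of the 6 Igfbp4 probe sets lie to the right on the CSF1 array, the 4 Igf1 pairs nearly coincide, and 11 pairs lie wholly to the left of the line.

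Of the 7 measured genes, Igfbp3 alone (1 gene) was 2-fold or more above control, and 0 were 2-fold or more below. Over all measured genes these shares were 0.94% and 0.712%. At 1.5-fold, 3 members were higher (Igfbp3, Igfbp4 and Igfbp7) and 1 was lower (Igf1r), beside 5.85% and 5.33% of all measured genes. Igfbp3 gave the set its place in this account, so nothing is read from these shares. The median log2 ratio of the 7 genes was 0.04, with 4 above 0 and 3 below. At 3-fold, Igfbp3 (1 gene) was higher and 0 genes were lower, beside 0.0821% and 0.0547%. Counted by probe set, 4 of 17 measured ones were 2-fold or more above control, 2 of Igfbp3 and 2 of Igfbp4, and 0 below, beside 0.922% of all measured probe sets in each direction. At 1.5-fold, 7 probe sets were higher and 1 was lower, beside 5.56% and 6.41%, and at 3-fold 2 were higher and 0 lower, beside 0.0785% and 0.054%.

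**Figure D2:**
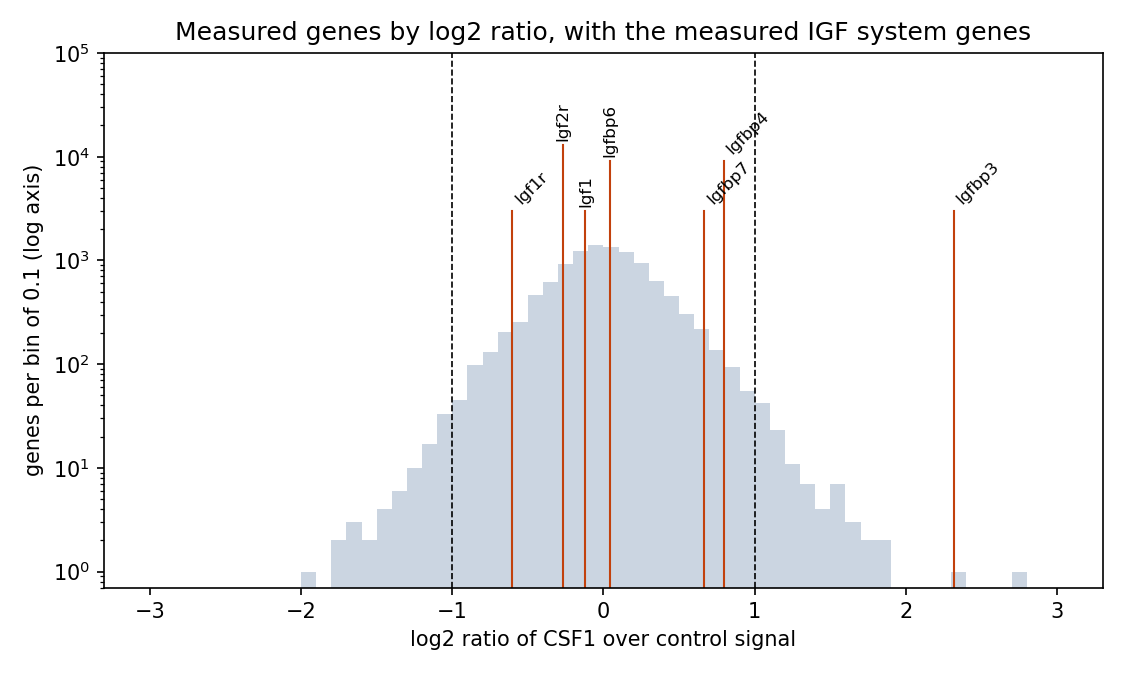
Number of measured genes (log axis) in bins of 0.1 of the log2 ratio of CSF1 over control signal, with vertical lines at the 7 measured IGF system genes and dashed lines at 2-fold. Igfbp3, at 2.32, stands apart from the bulk, Igfbp4 and Igfbp7 lie on its right shoulder and Igf1r on its left.

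Igf1, the ligand that macrophages secrete, had 4 probe sets, all above the background level on both arrays. Its brightest one (1452014_a_at) read 8494 units without CSF1 and 7819 units with it. The others read 4004, 5250 and 5758 units on the control array against 4089, 4986 and 5152 units on the CSF1 array. The pairs lay close together and not all on the same side, with 1 probe set slightly higher and 3 slightly lower after CSF1. The mean log2 ratio was -0.08 ± 0.08 (SD between 4 probe sets), smaller than the pooled SD between probe sets. Each of the 4 log2 ratios, from -0.16 to 0.03, was also smaller than the pooled SD, which is that of single probe sets and not of a mean.

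Igf2, the ligand that is expressed mainly before birth, read 97.1 and 16.3 units on the control array and 94.2 and 12.4 units on the CSF1 array. Both its probe sets were under the background level, so no ratio is given. The probe set that the annotation assigns to Igf2r together with Airn, a non-coding RNA antisense to Igf2r, was not counted as a member.

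Igf1r, the signalling receptor of both ligands, had 1 of 5 probe sets above the background level. That probe set (1452982_at) read 416 units without CSF1 and 274 units with it, 1.52-fold lower, a log2 ratio of -0.60. Of all measured genes, 5.01% had a lower ratio. The other 4 read between 57.4 and 119.6 units on the control array and between 20.3 and 137.0 units on the CSF1 array, 2 higher and 2 lower, all under the background level. The lower value of Igf1r therefore rests on 1 probe set, and averaging all 5 left the gene under the background level on both arrays. With each probe set raised to the background level before averaging, a choice made after the data were seen, the mean log2 ratio was -0.12.

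Igf2r, the mannose 6-phosphate and Igf2 receptor, was measured by 2 probe sets that read 1211 and 1098 units on the control array and 1007 and 992 units on the CSF1 array. Both were lower after CSF1, by 1.20-fold and 1.11-fold, and their log2 ratios averaged -0.21 ± 0.08 (SD between 2 probe sets). Each of the 2 log2 ratios, -0.27 and -0.15, was smaller than the pooled SD between probe sets of 0.29, which is that of single probe sets and not of a mean.

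Igfbp3, the main carrier of IGFs in blood and a product of many connective tissue cells, gave the largest difference of the set. Its probe set 1423062_at read 370 units without CSF1 and 1848 units with it, and the other, 1458268_s_at, read 322 units and 1674 units. All 4 values were above the background level, and on each probe set the CSF1 array was the higher one. The folds were 4.99 and 5.20, and the mean log2 ratio was 2.35 ± 0.04 (SD between 2 probe sets). Only 1 of the 9579 genes above the background level on both arrays had a higher ratio on its brightest probe set. The name of the second probe set marks it as one that can match several transcripts, and the first carries no such mark.

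The genes nearest to Igfbp3 in log2 ratio, a likeness over 2 arrays, were Ccl12 (2.71), a monocyte-attracting chemokine, Efemp1 (1.81), an extracellular matrix protein, the kinase gene Pak4 (1.74) and Dnaaf2 (1.73). They differed from Igfbp3 by 0.39, 0.51, 0.58 and 0.59. The control signals of Pak4 and Dnaaf2 were 147.8 and 147.3 units, just above the background level, so their ratios are less certain than that of Igfbp3.

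Igfbp4, a binding protein that mostly restrains IGF action until a protease cuts it, was covered by 6 probe sets, all with names that mark possible matches to several transcripts. On the brightest (1437406_x_at) the signal was 1926 units without CSF1 and 3343 units with it, 1.74-fold higher. The next (1437405_a_at) read 1752 units and 3642 units, 2.08-fold higher. A further 3 read 1538, 805 and 473 units on the control array and 2541, 1613 and 563 units on the CSF1 array, which is 1.65-fold, 2.00-fold and 1.19-fold higher. These 5 agreed in direction, with log2 ratios from 0.25 to 1.06 and a mean of 0.77 ± 0.32 (SD between 5 probe sets). The last probe set was under the background level on both arrays, at 41.1 and 16.0 units, with no ratio of its own. The mean over all 6 probe sets was a log2 ratio of 0.41 with its values as deposited and 0.64 with them raised to the background level first.

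Igfbp7, a binding protein with low affinity for IGFs that is found in vessels and connective tissue, read 6216 units without CSF1 and 9875 units with it on its brightest probe set (1423584_at), 1.59-fold higher. Its log2 ratio of 0.67 was exceeded by 4.08% of all measured genes. The other 2 probe sets were dim, with 165.6 and 126.4 units on the control array and 54.5 and 89.99 units on the CSF1 array, where only the first of these 4 values was above the background level. The mean log2 ratio over all 3 probe sets was -0.48 with the values as deposited, of which 3 are under the background level. It was 0.15 with each probe set raised to that level first. The higher signal of Igfbp7 thus rests on 1 probe set.

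Igfbp6, which binds Igf2 in preference to Igf1, read 202.3 units without CSF1 and 208.3 units with it, 1.03-fold higher, a log2 ratio of 0.04. Igfbp2 read 95.5 and 104.7 units, under the background level on both arrays. Igfbp5 read 141.1 and 132.4 units on its brighter probe set, just under the background level, and 80.2 and 16.9 units on the other. Among the binding proteins, Igfbp3, Igfbp4 and Igfbp7 were thus the ones with a higher signal, Igfbp6 lay within 0.29 of 0, and Igfbp2 and Igfbp5 gave no ratio. Igfbp1, which was not among the 10 genes and lies next to Igfbp3 in the RefSeq order of protein-coding genes, read 7.70 and 11.8 units, under the background level on both arrays. Igfbp2 and Igfbp5 are likewise neighbours, and both were under the level.

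The stretches of 250 bases before the start that the RefSeq promoter table uses for each of the 3 binding protein genes with a higher signal are printed here because the signals of these genes differed in the same direction. They are of build GRCm38.p6, read 5′ to 3′ on the gene's strand, and capitals mark each match on either strand to the TATA box letters TATANA, with N for any base, or to the GC box letters GGGCGG. The Igfbp3 stretch is chr11:7213924-7214173 on the minus strand, that of Igfbp4 is chr11:99040994-99041243 on the plus strand, and that of Igfbp7 is chr5:77408046-77408295 on the minus strand. For Igfbp7 the start used is the edge of the RefSeq gene span, while for Igfbp3 and Igfbp4 the span begins 1575 and 1239 bases farther upstream, so their stretches lie inside the annotated gene.
Igfbp3: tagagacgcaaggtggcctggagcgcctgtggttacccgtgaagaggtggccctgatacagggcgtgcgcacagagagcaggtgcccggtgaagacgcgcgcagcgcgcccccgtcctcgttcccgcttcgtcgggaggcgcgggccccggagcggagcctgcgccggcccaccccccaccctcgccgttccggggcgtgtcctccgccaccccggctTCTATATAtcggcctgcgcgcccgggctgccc
Igfbp4: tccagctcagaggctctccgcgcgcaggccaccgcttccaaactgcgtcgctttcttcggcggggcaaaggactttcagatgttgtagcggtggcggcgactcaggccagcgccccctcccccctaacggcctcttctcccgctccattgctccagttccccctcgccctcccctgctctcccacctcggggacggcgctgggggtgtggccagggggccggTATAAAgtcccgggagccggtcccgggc
Igfbp7: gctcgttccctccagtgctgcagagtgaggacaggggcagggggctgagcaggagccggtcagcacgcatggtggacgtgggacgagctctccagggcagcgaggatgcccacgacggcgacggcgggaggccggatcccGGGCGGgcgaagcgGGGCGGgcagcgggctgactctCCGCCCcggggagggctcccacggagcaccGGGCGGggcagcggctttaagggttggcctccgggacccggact

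The Igfbp3 stretch holds 2 overlapping TATANA matches, 25 to 32 bases before the start used, and that of Igfbp4 holds 1, 23 to 28 bases before it. The Igfbp7 stretch holds 0 such matches and 4 of GGGCGG, of which the other 2 stretches hold 0. TATANA occurred in 22.6% and GGGCGG in 32.7% of the 32851 stretches of this length in the table. The stretches have a GC content of 73.2% for Igfbp3, 69.2% for Igfbp4 and 74.0% for Igfbp7, beside a median of 52.4% over all. TGANTCA, an AP-1 motif, GAGGAA, an ETS-type motif, and CACGTG, an E-box, had 0 matches in these 3 stretches, and occurred in 6.75%, 23.3% and 6.02% of all. These letters were not limited to the genes with a higher signal. TATANA also matched at 2 places before Igfbp6, and GGGCGG at 2 before Igf1r and 3 before each of Igf2r, Igf2 (over its 4 stretches) and Igfbp2 (over its 2). The other members' stretches held CACGTG before Igf2r and Igfbp2, TGANTCA before Igf1 and Igfbp2, and GAGGAA before Igf1, Igf2, Igfbp2 and Igfbp6. A match describes letters only and says nothing about binding in these cells.

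Binding proteins of this family are made by fibroblasts and vessel cells, so markers of other cell types were read beside them. Fibroblast markers were well above the background level on both arrays: the collagen genes Col1a2 and Col3a1 read 18991 and 18382 units on the control array and 22188 and 24045 units on the CSF1 array. Of 9 fibroblast markers measured, 8 were higher on the CSF1 array on their brightest probe set, beside 50.2% of all measured genes. Their median log2 ratio was 0.30, with a range from -0.07 to 0.78. Their summed signal was 53044.5 units without CSF1 and 66785.9 units with it. The largest differences among them were those of the receptor gene Pdgfrb at 0.78, the proteoglycan gene Dcn at 0.59 and Col3a1 at 0.39. Not all probe sets of a marker agreed. Col1a1 was at 0.12 on its brightest probe set and -0.25 on the other, and the receptor gene Pdgfra at 0.32 and -0.58. The other probe sets of Col1a2 and Col3a1 were at 0.18 and 0.78. On brightest probe sets, all 9 markers had a lower ratio than Igfbp3 and Igfbp4, and 8 of the 9 a lower ratio than Igfbp7. Igfbp3 was picked partly for its large ratio, so nothing is read from its place above the markers. For Igfbp4 and Igfbp7 this order depended on the probe set. Igfbp4 was at 0.80 on its brightest probe set and at 0.77 on the mean of 5, beside 0.78 for Pdgfrb. The other probe set of Col3a1 lay above the 0.67 of Igfbp7. The part of fibroblast RNA in the ratios of Igfbp3, Igfbp4 and Igfbp7 was not tested. In such bulk RNA, fewer cells of a type and less RNA per cell cannot be told apart.

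All 8 markers of macrophages, the cells named by the label, were above the background level on both arrays. The 9 fibroblast markers were above it as well, so this alone does not set the cell types apart. Of the 8 macrophage markers, 7 were lower on the CSF1 array on their brightest probe set, beside 49.8% of all measured genes. Their median log2 ratio was -0.28 for all 8. Among the 7, Fcgr1 was at -0.03 on its brightest probe set and 0.09 on the other. Marker ratios were read under the deposited scaling only, and centring on the spiked-in controls would move all log2 ratios up together. The 8 ranged from -0.75 (Mertk, a receptor for apoptotic cells) to 0.05 (Cd14). Their summed signal was 142448 units without CSF1 and 116729 units with it. Mesothelial markers were near the background level, with 4 of 8 measured, and Msln, a defining one, at 30.1 and 25.5 units. The 3 that were above the level on both arrays, Wt1, Krt8 and Krt18, had log2 ratios of 0.16, 0.04 and -0.04. Upk3b, a membrane protein gene, read 30.6 units without CSF1 and 160.8 units with it, above the level only with CSF1, so its 0.18 is a lower bound. Of 7 endothelial markers 3 were measured, all lower on the CSF1 array. Vwf was at -0.54, and Kdr and Cldn5 were above the level only without CSF1, so the sizes of their ratios, -0.64 and -0.85, are lower bounds. Cdh5, a defining one, was under the level on both arrays. Smooth muscle and pericyte markers had a median of -0.11 (4 of 6 measured), although the actin gene Acta2 read 17657 units and 18347 units. For lymphocytes, 4 T and NK markers were measured, with the granzyme gene Gzma at -1.72 and a median of -0.09. Of the 4 B cell markers measured, only Ms4a1 was above the level on both arrays, at 0.02. Cd79a (155.3 units without CSF1 and 50.3 units with it) and Cd79b (216.4 and 70.3 units) were above it only without CSF1, and Pax5 (70.3 and 174.6 units) only with it, so their ratios are bounds. Of the myeloid lists, 1 neutrophil, 1 eosinophil and 1 dendritic cell marker were measured, S100a8 at 0.18, Siglecf at -0.21 and Zbtb46 at -1.14. Zbtb46 read 317.7 units without CSF1 and 144.1 units with it, and Siglecf 176.4 and 152.5 units. Their signals with CSF1 were thus just above the background level. The 4 mast cell markers measured had a median of -0.13, with Kit above the level only with CSF1.

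**Figure D3:**
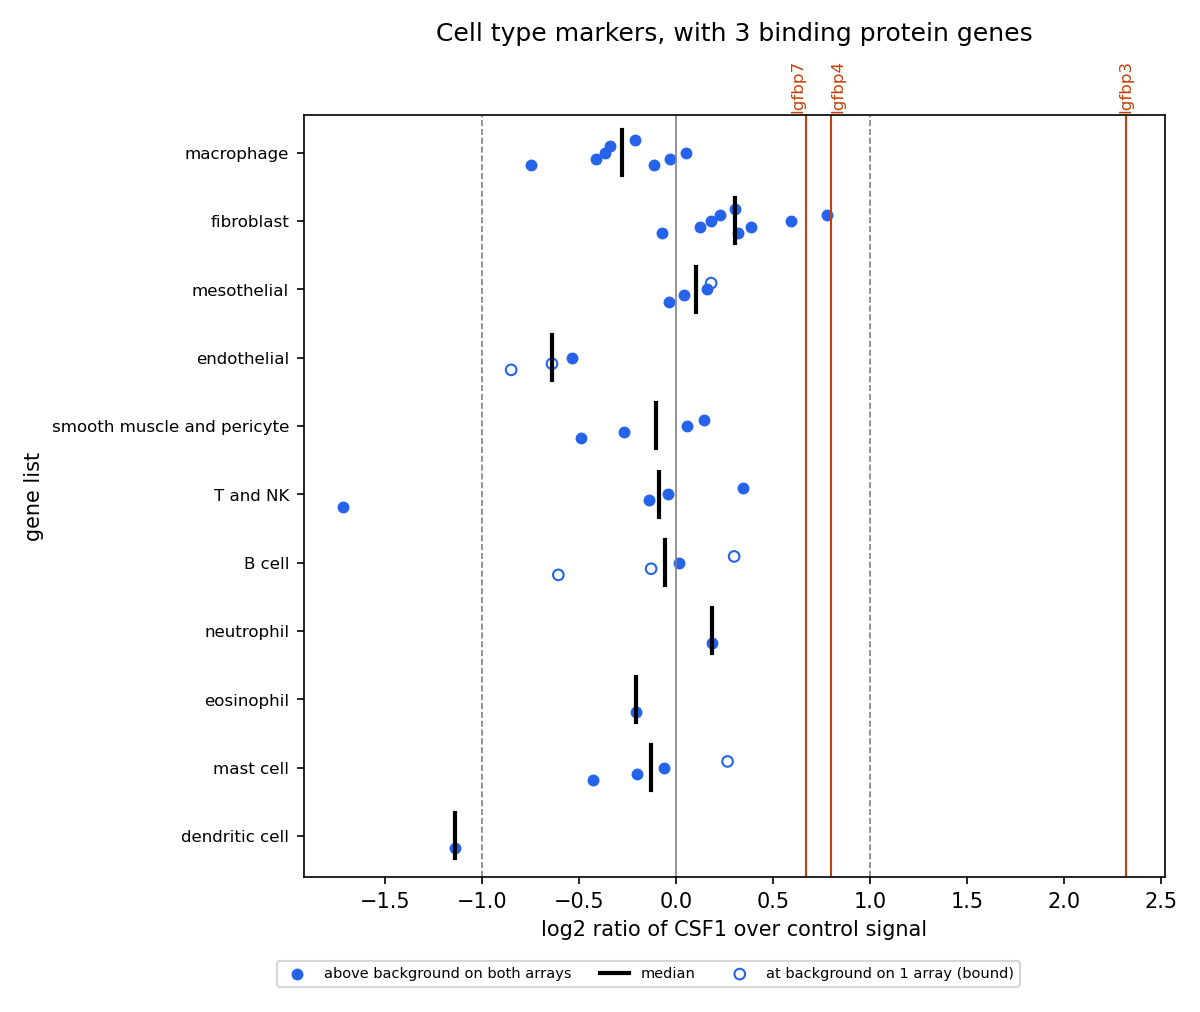
Log2 ratio of CSF1 over control signal for each measured marker gene of 11 cell types, with filled points for genes above the background level on both arrays, open points for bounds, black bars for medians, dashed lines at 2-fold and orange lines at Igfbp7, Igfbp4 and Igfbp3. An open point gives the least size of a difference, whether above or below 0. Fibroblast markers lie mostly right of 0 with a median of 0.30, macrophage markers mostly left of it with a median of -0.28. No list reaches Igfbp3, a gene picked partly for its large ratio.

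Beyond the 10 genes, 6 lists of genes around the IGF pathway were read, with 78 genes listed. Of the 78, 6 had no probe set assigned to exactly 1 gene and could not be measured, and 58 were measured. Of these 58, 2 were 2-fold or more above control, Ap1m1 and Ccn5, and 0 were 2-fold or more below, beside 0.94% and 0.712% of all measured genes.

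Of the other insulin and IGF axis genes, 3 of 8 were measured, with a median log2 ratio of 0.09. Insr, the insulin receptor, had a log2 ratio of -0.13, with 525 units without CSF1 and 478 units with it. Insrr, an insulin receptor-related receptor, had 0.41 at a signal near the background level, and Tmem219, a membrane protein described as a receptor for Igfbp3, had 0.09. Igfals, which holds Igfbp3 complexes in blood, was under the background level on both arrays, as were Ins2, Igfbp1 and Igfbpl1.

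Of the proteases that cut binding proteins and their inhibitors, 6 of 9 were measured, 2 above 0 and 4 below, with a median of -0.03. Stc2, an inhibitor of the Igfbp4-cutting protease Pappa, was under the background level without CSF1 and at 233 units with it, at least 1.64-fold higher. Pappa itself read 171.0 and 161.2 units, a log2 ratio of -0.09. The metalloprotease genes Adam12 and Adam9 had log2 ratios of 0.40 and -0.29. Pappa2, Stc1 and Adam28 were under the background level on both arrays.

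In the IGF receptor signalling list, 30 of 35 genes were measured, 10 above 0 and 20 below, and the median log2 ratio was -0.08. Of all measured genes, 49.8% were below 0. The largest differences were those of Pik3r2, a regulatory subunit of PI3 kinase, at -0.92 (431 units without CSF1 and 228 units with it), and of Tsc1, a restraint of mTOR complex 1, at -0.73. Its partner Tsc2 was at 0.60 and the transcription factor gene Foxo4 at -0.58. Each of these 4 had 1 probe set above the background level on both arrays and lay within 2-fold. The adaptor genes Irs2 and Irs4 were under the background level on both arrays.

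Genes that bind Igf2 RNA or belong to the imprinted growth network had 3 of 9 measured. The zinc-finger gene Plagl1 was at 0.80, the CDK inhibitor gene Cdkn1c at 0.47 and the RNA-binding protein gene Igf2bp3 at 0.09. Igf2bp1, Mest, Dlk1 and Peg3, like Igf2, were under the background level.

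Mannose 6-phosphate sorting genes, which share the second role of Igf2r, had all 11 members measured, 5 above 0 and 6 below, with a median of 0.00. Ap1m1, a subunit of the AP-1 clathrin adaptor, read 1009 units without CSF1 and 2033 units with it, 2.02-fold higher, and its other probe set had a log2 ratio of 0.52. The fold of Ap1m1 came under 2 after quantile normalization, after loess correction, on probe sets not marked as shared, and when its probe sets were averaged. The sorting adaptor gene Gga1 was at 0.74, and Nagpa and Gnptab, enzymes that build the mannose 6-phosphate tag, were at -0.56 and -0.21.

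The CCN family, matrix proteins whose first domain resembles that of the IGF binding proteins, had 5 of 6 members measured, 4 above 0 and 1 below, with a median of 0.27. Ccn5 read 220.2 units without CSF1 and 440.7 units with it, 2.00-fold higher on the 1 probe set above the background level on both arrays. Ccn3 was at 0.61 on its brightest probe set and 1.25 on the other. Ccn4 was at 0.27 and Ccn2, the connective tissue growth factor, at -0.24. Ccn6 was under the background level.

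**Figure D4:**
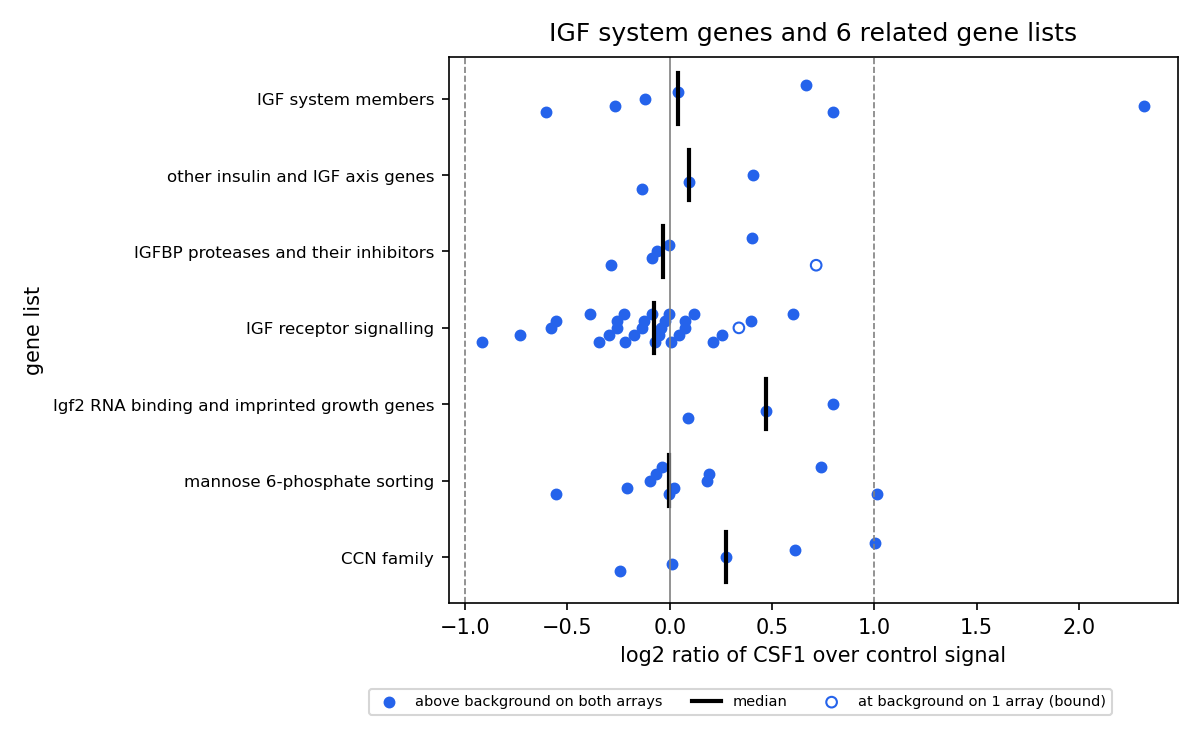
Log2 ratio of CSF1 over control signal for each measured gene of the IGF system and of the 6 related lists, with filled points for genes above the background level on both arrays, open points for lower bounds, black bars for medians and dashed lines at 2-fold. Igfbp3, at 2.32, is the farthest point, and the IGF receptor signalling genes gather around a median of -0.08.

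The order of the 7 measured members held under the other scalings of the arrays. Measured from the median over all genes, the log2 ratio of Igfbp3 lay between 2.30 and 2.33 under 4 other scalings, that of Igfbp4 between 0.76 and 0.81, that of Igfbp7 between 0.67 and 0.69 and that of Igf1r between -0.60 and -0.58. Igf1 lay between -0.12 and -0.10, Igf2r between -0.30 and -0.25 and Igfbp6 between 0.04 and 0.09. Centring on the hybridisation spikes raised the median of all genes to 0.28, so that the log2 ratios of Igf1 (0.18) and Igf2r (0.03) became positive in absolute terms.

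**Figure D5:**
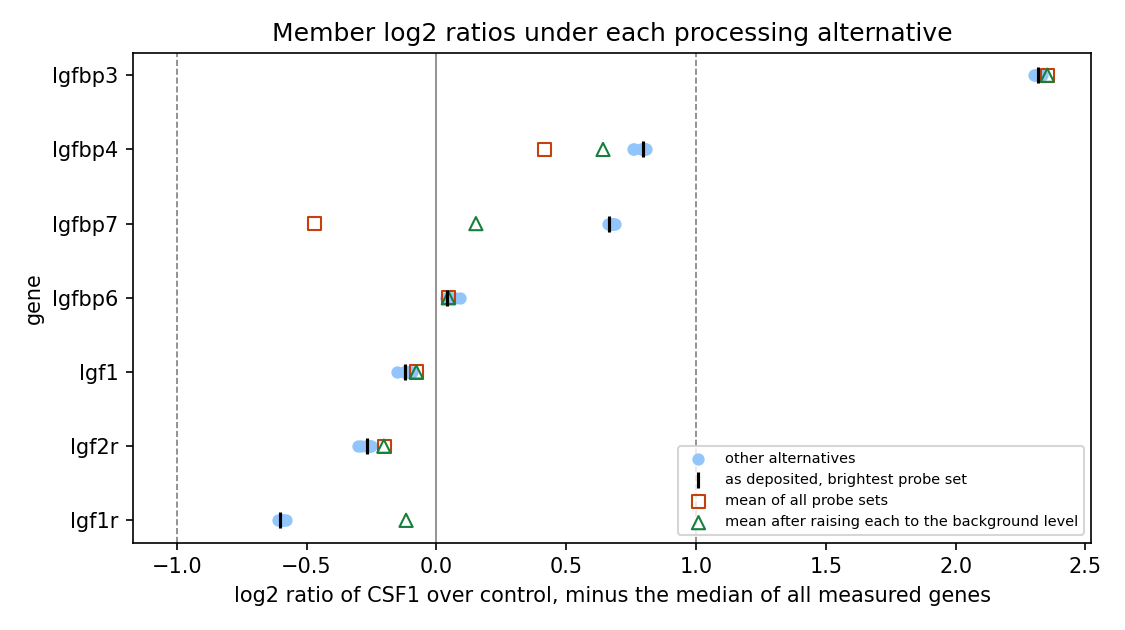
Log2 ratio of CSF1 over control for the 7 measured IGF system genes, minus the median of all measured genes, as deposited on the brightest probe set (black bars), averaged over a gene's probe sets as deposited (squares) or after raising each to the background level (triangles), and under the other alternatives (blue points), with dashed lines at 2-fold. The points of a gene lie close together except the squares of Igfbp4 (0.42) and Igfbp7 (-0.47), which average values under the background level, and the triangles of Igfbp4 (0.64), Igfbp7 (0.15) and Igf1r (-0.12).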

How the data were processed

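The authors deposited 1 intensity value per probe set and array on a linear scale. They analysed the arrays with GeneSpring 6.2, per the series' design text in the labels, and no source used here names the summarization method. Trimmed by 2% at each end, the mean was 500.0 units on both arrays. Samples were grouped by the treatment label.

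Log2 ratios of CSF1 over control were computed from the deposited values without further scaling. Of the probe sets, 34958 had 1 gene symbol, 932 several and 9211 none, and symbols were checked by Entrez ID against RefSeq, where 204 did not match. Each gene was read from its brightest probe set, by mean log2 signal. The background level was the 90th percentile of the signals of 90 genes of other tissues (145 probe sets, 97 genes listed), some of which, such as Mbp, were well above it. The members and lists were chosen with earlier results of these data known. Named were all members, every gene past 2-fold and up to 4 with the largest absolute ratio per pathway list, up to 3 per marker list, and the 4 genes nearest Igfbp3. Cd14, Col1a1, Col1a2, Pdgfra, Msln, Cdh5, Acta2, Kit, the B cell markers and the genes under the background level were added after their values were seen. The procedure was tested on simulated arrays, with changes well past 2-fold put only into genes far above the background level. That test does not cover genes of weaker signal or smaller differences. The alternatives were 4 scalings, 3 background levels, 2 rules for probe sets, 1 more such rule added after seeing the data (probe sets averaged after raising each to the background level), and fold thresholds of 1.5 and 3. The tools were matplotlib 3.10.9, statsmodels 0.14.6, scipy 1.17.1, pandas 2.3.3 and numpy 2.4.6 under Python 3.11.15.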

Additional observations from a re-analysis of the deposited data

Results flagged for a closer look

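The probe set annotated to both Airn and Igf2r, which entered no comparison, read 129.0 units on the control array, under the background level, and 166.8 units on the CSF1 array, above it, which is at least 1.17-fold higher. It drew attention because a signal outside the comparison was above that of the control sample. It cannot be assigned to either gene, and 166.8 units is under the 95th percentile of the unrelated-tissue genes, 183.8 units.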

How the results depend on the processing

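No paired analysis was possible because each group has 1 array, and for the same reason no array could be left out. Under the 10 alternatives for scaling, background and probe sets, of which 1 was chosen after seeing the data, the log2 ratio of Igfbp3 lay between 2.31 and 2.61. Centring on the spikes moved all genes up together, and 332 of 10986 measured genes were then 2-fold higher, beside 103 of 10962 without it. Among the 332 were 2 members (Igfbp3 and Igfbp4), 1 gene of the imprinted list, 2 of mannose 6-phosphate sorting and, as before, 1 of the CCN family. List medians became 0.39 for other insulin and IGF axis genes, 0.26 for proteases and 0.77 for the imprinted list. They became 0.29 for mannose 6-phosphate sorting and 0.57 for the CCN family. The median of the IGF receptor signalling list turned from -0.08 to 0.20. Under quantile normalization, loess correction, both means of all probe sets, and probe sets not marked as shared, 0 mannose 6-phosphate sorting genes were 2-fold higher. With no background level, 4 member probe sets were 2-fold lower, 1 protease-list gene was 2-fold higher and 1 lower, and 1 imprinted-list gene was higher, each with at least 1 of its values under the level. Over all 18194 genes, 1743 were 2-fold higher and 1925 lower under this setting. At 1.5-fold, 3 member genes and 7 member probe sets were higher and 1 of each lower, and at 3-fold 2 member probe sets were higher. The mean of all probe sets, which averages values under the background level as deposited, gave -0.48 for Igfbp7, 0.41 for Igfbp4 and no value for Igf1r. The alternative chosen after seeing the data, with each probe set raised to the level before averaging, gave 0.15, 0.64 and -0.12. It gives a log2 ratio of 0 to every probe set under the level on both arrays. It therefore mostly shrinks the ratio of the brighter probe sets and cannot show that a direction is stable. Igfbp4 had no value on probe sets not marked as shared, since all of its 6 are so marked. Signals near the background level limit what can be said of Igf1r, Igf2, Igfbp2, Igfbp5 and Igfbp6.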
